A study of Mus musculus with 4 samples.

Results

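The miRNAs of the imprinted Dlk1-Dio3 locus were followed in organoids grown from crypts of the mouse small intestine and in the epithelium of that tissue. Total RNA was hybridised on 1-colour miRNA arrays, with 1 array each for organoids on day 1 of culture, organoids on day 5, villus epithelial cells and crypt epithelial cells. The labels give no strain, age, number of animals or culture medium. With 1 array per group no p-value was computed, and each comparison describes these 4 arrays. Members were the mouse miRNA probes whose names carry 1 of 47 miRNA numbers of the locus, with any letter suffix and arm, which gave 101 of 1900 miRNA probes. They comprised 50 probes of 5p arms, 50 of 3p arms and miR-496b, whose name gives no arm.

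Dlk1-Dio3 is an imprinted domain of mouse chromosome 12. Its protein-coding genes, among them Dlk1, Rtl1 and Dio3, are expressed mainly from the paternal chromosome, and its long noncoding RNAs Meg3, Rian and Mirg from the maternal one. The maternal transcripts carry a large array of miRNA hairpins, best known from embryo, placenta and brain, and from fully pluripotent mouse stem cells, where the array is active. A miRNA silences messenger RNAs mainly through the seed at its 5′ end, so that miRNAs with 1 seed can share targets.

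RefSeq (GRCm38.p6) held mature sequences for 97 of the 101 members. Of these, 96 lie on chromosome 12, between miR-770 and miR-410 (chr12:109563710-109743784), 94 of them on the plus strand. miR-496b was chosen by the number in its name, but RefSeq places it on chromosome 19, and it was not detected on any array. The names miR-376c-3p, miR-485-5p, miR-487b-3p and miR-539-3p had no entry in the table used. In RefSeq, 2 members lie within Meg3 (miR-770-5p and miR-770-3p), 20 within the span of Rtl1, 4 within Rian and 16 within Mirg. By their numbers the members fall into a proximal group, from miR-770 to miR-370, with 26 probes, and a distal group with 75 probes, which holds the miR-379 to miR-410 cluster and, by its number, miR-496b.

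Of the miRNAs named in the results, 5 are shown first because they stood farthest above background on at least 1 array. Capitals mark the seed, bases 2 to 8, and every sequence runs 5′ to 3′.
miR-494-3p: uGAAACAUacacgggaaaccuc
miR-370-3p: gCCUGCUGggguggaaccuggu
miR-770-3p: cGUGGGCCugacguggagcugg
miR-665-5p: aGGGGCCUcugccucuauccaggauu
miR-667-5p: cGGUGCUGguggagcagugagcacg
These 5 have 5 different seeds, and G and C make up 45.5% of miR-494-3p, against 57.7% to 72.7% of the other 4. They map to chr12:109715367-109715388 (miR-494-3p), chr12:109618305-109618326 (miR-370-3p), chr12:109563744-109563765 (miR-770-3p), chr12:109586331-109586356 (miR-665-5p) and chr12:109720020-109720044 (miR-667-5p), all on the plus strand.

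A further 3 are shown because they are main products of the locus in tissues where it is active. miR-127-3p is made from a transcript antisense to Rtl1, which it silences in mice, and miR-379-5p and miR-410-3p come from opposite ends of the miR-379 to miR-410 cluster.
miR-127-3p: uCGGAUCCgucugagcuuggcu
miR-379-5p: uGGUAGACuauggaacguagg
miR-410-3p: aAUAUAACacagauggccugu
They map to chr12:109592888-109592909, chr12:109709065-109709085 and chr12:109743764-109743784, each on the plus strand. None of the 3 stood above 1.28 times the detection limit of any array, and their intensities are given after those limits.

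A few seeds recur among the members, and 1 pair is shown because the 2 miRNAs differ in detection.
miR-379-3p: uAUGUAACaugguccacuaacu
miR-411-3p: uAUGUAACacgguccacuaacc
miR-411-3p was detected on all 4 arrays and miR-379-3p on the day 1 and villus arrays. Both lay close to the detection limit, at a median over the arrays of 1.04 and 1.01 times it. They lie at chr12:109709102-109709123 (miR-379-3p) and chr12:109710225-109710246 (miR-411-3p), both on the plus strand.

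The arrays differed in brightness. The 16 Spike Control spots averaged 16422 intensity units above the blank spots on the day 1 array, 8578 on the day 5 array, 28361 on the villus array and 8540 on the crypt array. The detection limit of an array was set 2 SD above the mean of its own blank spots, at 82.3, 70.5, 107.9 and 69.5 in the same order, and a probe above it is called detected. Each array also carried 32 spots named Negative Control, of which 15 on the day 1 array, 10 on the day 5 array, 8 on the villus array and 5 on the crypt array exceeded that limit. Counts are therefore also given above the highest Negative Control spot, at 110.4 on the day 1 array, 80.6 on day 5, 123 on the villus and 72.6 on the crypt array. By the slide identifiers, 3 of the arrays shared 1 slide, and the array of day 5 organoids was alone on a second. Time in culture and slide therefore cannot be told apart for day 5.

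Most of the locus lay close to the blank level on the organoid and tissue arrays alike. On the day 1 array 68 of 101 members (67.3%) were detected, on day 5 58 (57.4%), on the villus array 72 (71.3%) and on the crypt array 51 (50.5%). Over all 1897 miRNA probes tested, 82.0% were detected on day 1, 71.6% on day 5, 79.4% on the villus and 66.8% on the crypt array, each above the share of the members. Above the highest Negative Control spot were 22 members on day 1 (21.8%), 18 on day 5 (17.8%), 39 on the villus array (38.6%) and 26 on the crypt array (25.7%), against 42.5%, 40.0%, 60.7% and 46.8% of all miRNA probes. The median member stood at 1.08 times the detection limit on day 1, 1.01 on day 5, 1.07 on the villus and 1.00 on the crypt array. The median over all miRNA probes stood at 1.23, 1.07, 1.25 and 1.04 in the same order, so it too lay near the limit.

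Intensities of at least 2 times the limit were reached by 7 members on day 1, 3 on day 5, 8 on the villus array and 2 on the crypt array. These are 6.93%, 2.97%, 7.92% and 1.98% of members, against 21.2%, 12.4%, 23.4% and 8.01% of all miRNA probes. Those 2 on the crypt array were miR-494-3p and miR-487b-3p. In all, 40 members were detected on all 4 arrays, 20 on 3, 9 on 2, 11 on 1 and 21 on none. Detection on all 4 thus covered 39.6% of members, against 60.5% of all miRNA probes, and detection on none 20.8%, against 12.6%. With the highest Negative Control spot as the limit, 16 were above it on all 4 arrays and 56 on none (15.8% and 55.4%, against 36.1% and 36.9% of all miRNA probes).

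**Figure D1:**
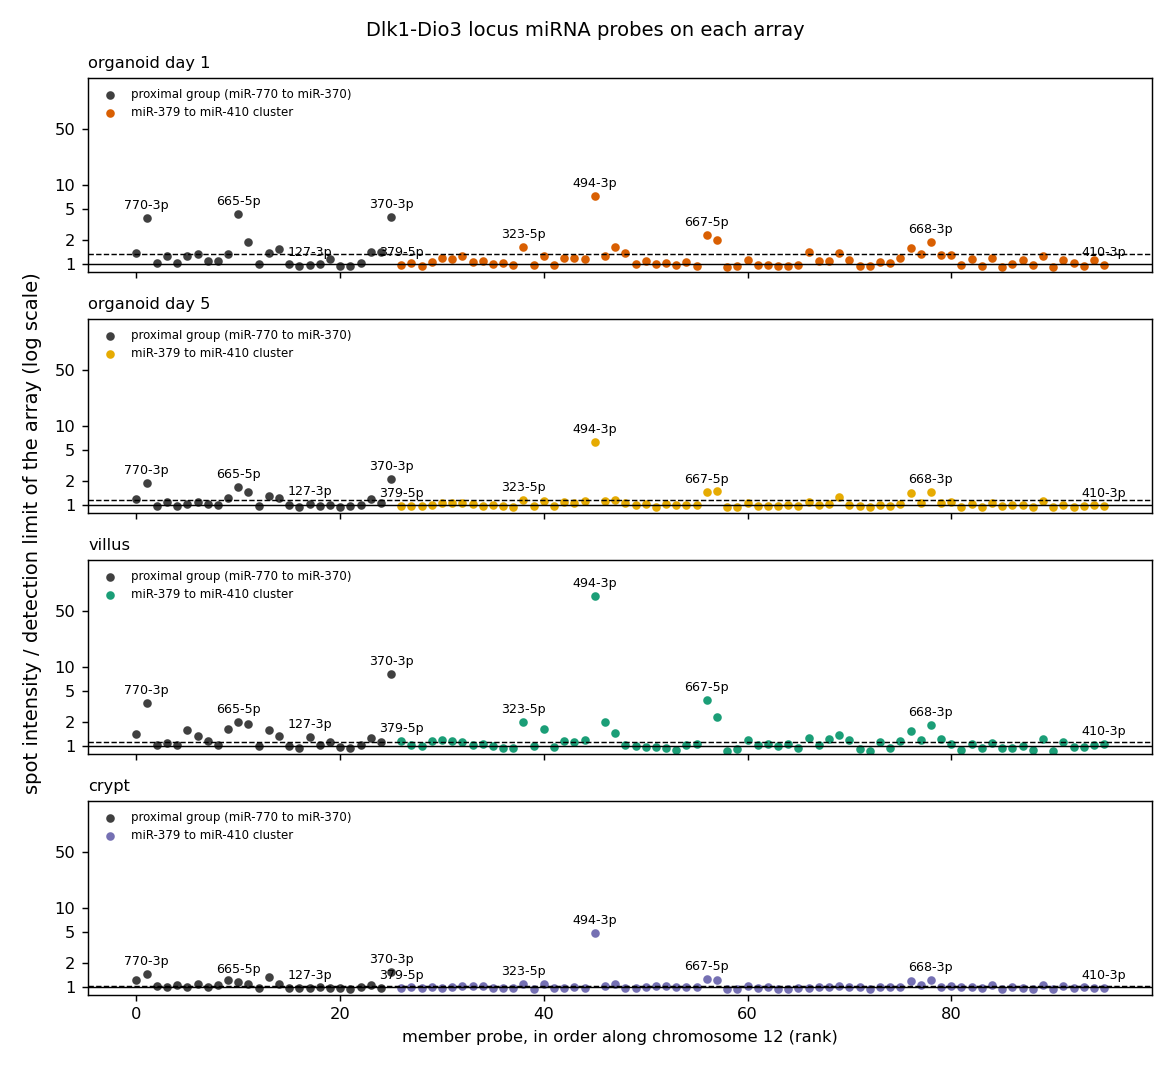
Spot intensity divided by the detection limit of its array (log scale) for the 96 members that RefSeq places on chromosome 12, in their order along it, with 1 panel per array. The solid line is the detection limit and the dashed line the highest Negative Control spot; most members sit at the solid line, and miR-494-3p stands at 7.31, 6.23, 77.3 and 4.78 times the limit on the day 1, day 5, villus and crypt arrays.

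The proximal group was detected more often than the distal group on each array, at shares nearer to those of all miRNA probes. Of all miRNA probes 82.0%, 71.6%, 79.4% and 66.8% were detected on the day 1, day 5, villus and crypt arrays. Detected were 21 of 26 proximal probes on day 1, 17 on day 5, 23 on the villus array and 16 on the crypt array (80.8%, 65.4%, 88.5% and 61.5%), against 47, 41, 49 and 35 of 75 distal probes (62.7%, 54.7%, 65.3% and 46.7%). Above the highest Negative Control spot were 10, 9, 13 and 12 of the 26 proximal probes, against 12, 9, 26 and 14 of the 75 distal probes in the same order of arrays. On all 4 arrays, 12 proximal and 28 distal probes were detected (46.2% and 37.3%), and 8 of each group exceeded the highest Negative Control spot (30.8% and 10.7%). Each of these shares was below that of all miRNA probes given above for the same limit. These are counts on 4 arrays, and no test was made of the difference or of the part of base composition in it. The imprinted Sfmbt2-locus family (miR-297, miR-466, miR-467 and miR-669), another large miRNA cluster of the mouse, had 32 of 70. Of the miR-200 family, which holds cells in an epithelial state, 9 of 10 probes were detected on all 4 arrays. Among the 50 hairpins of members with a probe for each arm, both arms were detected on all 4 arrays for 11. Only 1 arm was for 18 (7 of them 5p and 11 of them 3p), and neither for 21. No such count was made over other hairpins, so these counts do not set the locus apart.

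The base composition of a member went with its brightness. Among the 97 members with a sequence, Spearman's rho between the share of G and C and the intensity was 0.63 on the day 1 array, 0.59 on day 5, 0.56 on the villus and 0.53 on the crypt array. Over the 1612 miRNA probes with a sequence it was 0.58, 0.56, 0.52 and 0.45 in the same order. These are correlations across probes that share an array, and are given as a description. Of 17 members under 40% G and C, 1 was detected on all 4 arrays, of 32 at 40% to under 50% 10, of 32 at 50% to under 60% 16, and of 16 at 60% and over 11. In each of these classes the share of members was below that of all miRNA probes, at 5.88% against 22.3%, 31.3% against 44.9%, 16 of 32 against 67.1% and 68.8% against 87.1%.

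**Figure D2:**
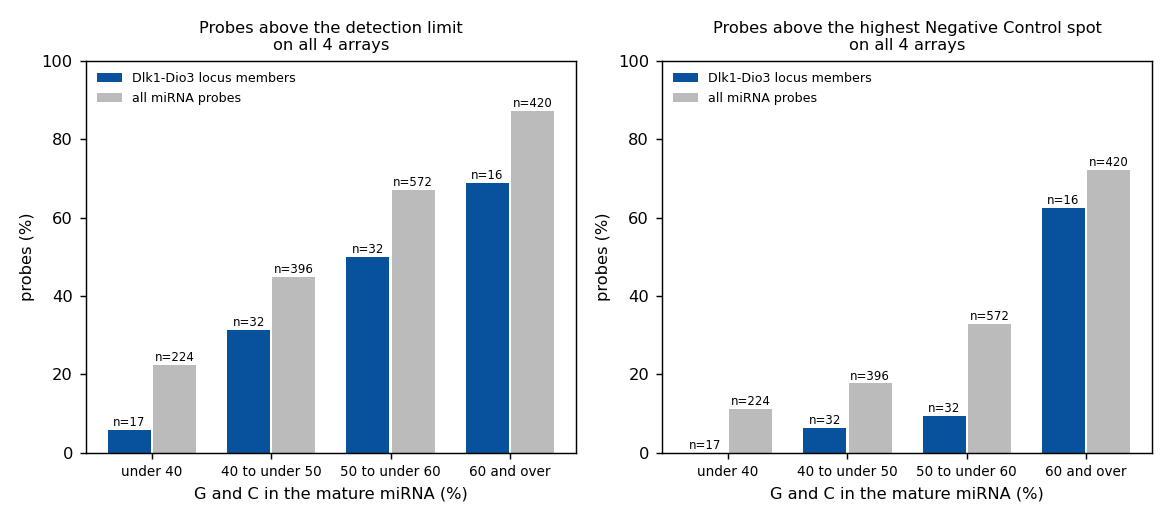
Share of probes (%) above the detection limit on all 4 arrays (left) and above the highest Negative Control spot on all 4 arrays (right), by the share of G and C in the mature miRNA, for members (blue) and all miRNA probes, members included (grey). The number of probes is written on each bar, and both shares are higher in the classes richer in G and C.

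The 21 members detected on none of the arrays included both arms of miR-136 and miR-544, 1 arm each of miR-127 (5p), miR-154 (3p), miR-300 (5p), miR-369 (3p), miR-376a (5p), miR-376c (5p), miR-377 (3p), miR-409 (5p), miR-411 (5p), miR-412 (5p), miR-496a (3p), miR-539 (3p), miR-654 (5p), miR-758 (3p), miR-1193 (3p) and miR-1197 (3p), and miR-496b. Among them, miR-136-5p is made from the transcript antisense to Rtl1. It had 77.7 and 66.4 on the day 1 and day 5 arrays, 106 on the villus array and 66.9 on the crypt array, below the limit of each. miR-411-5p of the miR-379 to miR-410 cluster had 76.7, 68.3, 108 and 67.7 in the same order, also below each limit. Its villus value is rounded up and lay just under the limit of 107.9 there. An intensity under the limit says that the miRNA was not detectable on that array, not that it is absent.

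miR-127-3p had an intensity of 80.1 on day 1, 71.9 on day 5, 139 on the villus array and 67.6 on the crypt array. It was thus above the limit on the day 5 and villus arrays, and above the highest Negative Control spot on the villus array only. miR-379-5p had 81.1 on day 1, 68.4 on day 5, 124.7 on the villus array and 66.9 on the crypt array, and was detected on the villus array only, where it also exceeded the highest Negative Control spot. miR-410-3p had 79.7 on day 1, 69.0 on day 5, 115 on the villus array and 67.1 on the crypt array, and was above the limit, though not above the highest Negative Control spot, on the villus array only. All 3 are miRNAs of RNA transcribed from the maternal chromosome, and each of the 3 was nearest to its limit, or below it, on the organoid and crypt arrays.

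Besides miR-379-5p and miR-410-3p, 4 members were detected on the villus array only: miR-323-3p, miR-376a-3p, miR-376b-5p and miR-376c-3p. The 6 together make 5.94% of the members, against 2.74% of all miRNA probes detected on the villus array only. Only on the day 1 array were miR-369-5p, miR-382-3p and miR-1197-5p, only on the crypt array miR-543-3p and miR-666-3p, and on the day 5 array alone no member was detected. The shares for day 1 only and crypt only were 2.97% and 1.98% of members, near the 3.85% and 1.27% of all miRNA probes. None of these 11 stood above 1.16 times the limit on its array. miR-666-5p was detected on both organoid arrays and neither tissue array, and miR-376b-3p and miR-434-5p on both tissue arrays and neither organoid array, each at no more than 1.101 times the limit.

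Above the highest Negative Control spot, 15 members stood out on the villus array only (14.9%, against 11.5% of all miRNA probes). They were miR-127-3p, miR-134-5p, miR-299a-5p, miR-299b-3p, miR-329-5p, miR-337-3p, miR-379-5p, miR-381-3p, miR-411-3p, miR-485-3p, miR-493-3p, miR-494-5p, miR-539-5p, miR-654-3p and miR-679-5p. miR-134-5p, which limits the size of dendritic spines in rat neurons, had 96.8 on day 1, 73.5 on day 5, 126.04 on the villus array and 70.0 on the crypt array. On the crypt array alone were miR-377-5p, miR-493-5p, miR-540-5p and miR-543-5p, on the day 1 array alone miR-370-5p and miR-1193-5p, and on the day 5 array alone none. Those 4 and 2 members are 3.96% and 1.98%, against 1.69% and 0.316% of all miRNA probes.

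Markers of other cell types differed between the arrays beside these counts. Of 9 mesenchymal and smooth muscle miRNAs, 8 were detected on day 1, 5 on day 5, 9 on the villus and 7 on the crypt array. Their intensities above the blank level summed to 0.947% of the mean Spike Control on day 1, 0.697% on day 5, 87.7% on the villus array and 1.33% on the crypt array. miR-143-3p and its cluster partner miR-145a-5p, which define that list, had 91.7 and 89.2 on day 1, 70.3 and 68.8 on day 5, where neither was detected, 11915 and 10085 on the villus array and 109 and 94.4 on the crypt array. Of 7 neural miRNAs, 3 were detected on day 1, 2 on day 5, 5 on the villus and 3 on the crypt array, with sums of 0.201%, 0.162%, 0.541% and 0.185% of the Spike Control, and of the 2 that define neurons miR-9-5p was detected on no array and miR-124-3p on the villus array only. All 8 epithelial miRNAs were detected on each array, with sums of 85.5%, 105%, 221% and 206% in the same order. The leukocyte list (5 miRNAs) summed to 0.339%, 0.278%, 5.68% and 0.331% of the Spike Control on the day 1, day 5, villus and crypt arrays. The red blood cell list (2 miRNAs) summed to 0.179%, 0.171%, 7.52% and 0.161%, and the endothelial list (2 miRNAs) to 0.0778%, 0.0471%, 2.35% and 0.0811%. A list of 7 miRNAs of pluripotent cells summed to 1.19% and 1.39% on the day 1 and day 5 arrays. On the villus and crypt arrays it summed to 0.553% and 0.493%. Of these 7, 4 were detected on day 1, 3 on day 5, 4 on the villus and 3 on the crypt array. Above the highest Negative Control spot stood only 1 on each organoid array, 2 on the villus and 1 on the crypt array. The 2 endocrine miRNAs had 1.23%, 2.07%, 1.28% and 1.92% on the day 1, day 5, villus and crypt arrays. The part of other cell types in the members' values was not tested, and in bulk RNA fewer cells of a type and less RNA per cell cannot be told apart.

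Levels were compared after normexp background correction with an offset of 50 and quantile normalization over the miRNA probes, on the log2 scale. Differences are the first array minus the second. Between organoids and tissue, and between villus and crypt, most members differed little, and 4 miRNAs passed 2-fold in at least 1 comparison: miR-494-3p, miR-370-3p, miR-487b-3p and miR-665-5p. Each of these is described in turn, with its value on every array.

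miR-494-3p, from the miR-379 to miR-410 cluster, was highest on the villus array. Its intensity was 601 on day 1, 439 on day 5, 8336 on the villus array and 332 on the crypt array, so the villus spot stood far above the other 3. Above the blank level this came to 3.18% of the mean Spike Control on day 1, 4.32% on day 5, 29.0% on the villus array and 3.10% on the crypt array. The normalized level was 8.71 and 9.17 on the organoid arrays, 11.40 on the villus array and 9.67 on the crypt array. The level was 6.46-fold lower on day 1 than on the villus array (log2 difference -2.69, between -3.56 and -1.74 under the alternatives), the 7th lowest of 1429 probes detected on both. On day 5 it was 4.69-fold lower (-2.23, between -3.67 and -1.78), the 8th lowest of 1326. The nearest bounds to 0 came with the background column subtracted and the farthest with scaling to the median. It was 3.31-fold higher on the villus array than on the crypt array (1.73), the 21st highest of 1211. Under the alternatives this difference lay between 0.52 with the background column subtracted and 4.005 with scaling to the median.

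Against the crypt array the direction of miR-494-3p in organoids depended on the scaling. The difference was -0.96 on day 1 and -0.50 on day 5 after quantile normalization, but 0.44 and 0.34 with scaling to the median and 0.04 and 0.48 with Spike Control scaling. In the authors' deposited table miR-494-3p had 391 on day 1, 608 on day 5, 3730 on the villus and 774 on the crypt array. The 5 spots around it on the villus array had intensities of 96.9 to 204. Its column named as background was 70.4% of the spot there, against 26.4% on day 1, 54.2% on day 5 and 40.9% on the crypt array. The opposite arm, miR-494-5p, had 95.4 on day 1, 78.9 on day 5, 129 on the villus array and 68.5 on the crypt array, so that on the villus array it lay near the limit of 107.9.

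miR-370-3p, the last hairpin of the proximal group, followed the same order of villus over the other arrays. Its intensity was 327 on day 1, 149 on day 5, 878 on the villus array and 106 on the crypt array. The level was 2.15-fold lower on day 5 than on the villus array (log2 difference -1.11) and 1.80-fold lower on day 1 (-0.85). It was 2.07-fold higher on the villus array than on the crypt array (1.05). The size and sign were not stable: with the background column subtracted, miR-370-3p had 1.46 on day 1 and 0.38 on day 5 against the villus, and -1.51 for villus minus crypt, and with scaling to the epithelial miRNAs day 1 minus villus was 0.19. On the villus array that column was 106% of the spot itself. Against the crypt array the organoids had 0.20 on day 1 and -0.06 on day 5.

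miR-487b-3p, also of the miR-379 to miR-410 cluster, was highest on the crypt array after normalization. Its intensities were alike, at 198 on day 1, 146 on day 5, 205 on the villus array and 156 on the crypt array, while the arrays differed in brightness. As a share of the Spike Control it had 0.729% on day 1, 0.908% on day 5, 0.369% on the villus array and 1.03% on the crypt array. The level was 2.45-fold lower on day 1 than on the crypt array (log2 difference -1.29) and 1.80-fold lower on day 5 (-0.85). On the villus array it was 3.21-fold lower than on the crypt array (-1.68), the 17th lowest of 1211 probes. The villus difference stayed below 0 under all 8 alternatives, between -2.44 and -0.49. The day 1 difference was between -1.59 and 0.67 and above 0 only with scaling to the epithelial miRNAs. The opposite arm, miR-487b-5p, had 114 on day 1, 88.4 on day 5, 150 on the villus array and 72.1 on the crypt array, and its villus minus crypt difference was 0.11.

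miR-665-5p, of the proximal group, was the only member at least 2-fold higher on the day 1 array than on both tissue arrays after quantile normalization. Its intensity was 348 on day 1, 119 on day 5, 216 on the villus array and 81.4 on the crypt array. The level was 2.23-fold higher on day 1 than on the crypt array (log2 difference 1.15, between 0.86 and 4.49 under the alternatives) and 2.27-fold higher than on the villus array (1.19, between 0.80 and 3.06). By day 5 it was 1.74-fold lower than on day 1 (-0.80, between -1.86 and -0.61), the 19th lowest of 1346 probes. On day 5 it was still above the crypt level, by 0.35. Its difference from the villus was 0.38, but -0.12 with scaling to the median. The other arm, miR-665-3p, had 154.05 on day 1, 105 on day 5, 204 on the villus array and 76.9 on the crypt array, with 0.18 for day 1 minus crypt and 0.18 for day 5 minus day 1.

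**Figure D3:**
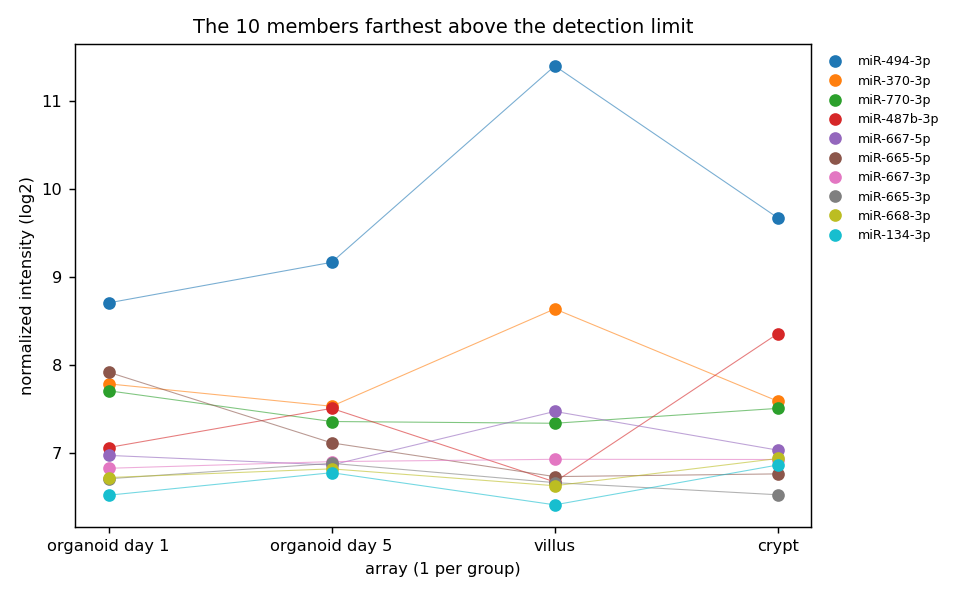
Normalized intensity (log2) of the 10 members farthest above the detection limit (by the median over the 4 arrays) on each array, with 1 point per array and thin lines joining the points of a miRNA. miR-494-3p is at 8.71, 9.17, 11.40 and 9.67 on the day 1, day 5, villus and crypt arrays, and levels of different probes are not comparable with each other.

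The other members of the 10 farthest above the limit moved less. miR-770-3p, which lies within Meg3, had 313 on day 1, 133.3 on day 5, 376.9 on the villus array and 103 on the crypt array, with log2 differences from the crypt array of 0.20 on day 1, -0.15 on day 5 and -0.17 in the villus. miR-667-5p had 189 on day 1, 104 on day 5, 410.5 on the villus array and 88.5 on the crypt array, with log2 differences from the villus array of -0.50 on day 1 and -0.61 on day 5, and of 0.44 for villus minus crypt. Its other arm miR-667-3p had 167, 105, 252 and 85.5 in the same order of arrays, and -0.10, -0.03 and 0.00 for the same comparisons. The villus spot of each was the brightest, as was the villus array itself.

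miR-665-3p, miR-668-3p and miR-134-3p complete the 10. miR-668-3p had 155.4 on day 1, 102 on day 5, 199.5 on the villus array and 85.8 on the crypt array, and no difference beyond -0.31. miR-134-3p had 132, 99.5, 169 and 84.0 in the same order, and its largest differences were -0.45 for villus minus crypt and 0.37 for day 5 minus villus. None of the 3 passed 2-fold in any of the 6 comparisons.

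Among other members named by the size of their difference, 3 of the proximal group (miR-431-3p, miR-540-3p and miR-770-5p) were lower on the other arrays than on the crypt array after quantile normalization. miR-431-3p had 114 on day 1, 90.6 on day 5, 171 on the villus array and 92.8 on the crypt array, and differences from the crypt array of -0.87, -0.62 and -0.77 for day 1, day 5 and villus. miR-540-3p had 109, 87.2, 179 and 86.6, and -0.72, -0.48 and -0.48, and miR-770-5p had 112, 85.1, 154.14 and 85.9, and -0.65, -0.49 and -0.63. The sign of these 3 depended on the scaling: with scaling to the epithelial miRNAs, day 1 minus crypt was 0.69 for miR-431-3p, 0.89 for miR-540-3p and 1.07 for miR-770-5p. In contrast, miR-679-5p and miR-493-3p were higher on the villus array than on the crypt array, by 0.65 and 0.44. They had 104 and 105 on day 1, 78.4 and 72.3 on day 5, 218 and 173 on the villus array and 71.1 and 69.8 on the crypt array. On the crypt array these 2 lay just above the limit of 69.5, so their size is uncertain, and under the alternatives miR-679-5p lay between 0.29 and 3.37 and miR-493-3p between -0.10 and 3.28. After quantile normalization no difference of these 5 members reached 2-fold.

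Smaller differences in the same ranking were those of miR-487b-5p (0.35 for day 5 minus crypt), miR-1193-5p (0.40 for day 1 minus villus), miR-154-5p (0.31 on day 1 and 0.26 on day 5, each against the villus) and miR-370-5p (0.33 on day 1 against the villus, and -0.23 on day 5 against day 1). miR-154-5p had 108 on day 1, 76.9 on day 5, 114 on the villus array and 71.4 on the crypt array. Each stood at no more than 1.41 times the limit on every array.

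As a set, the members' median difference was within 0.07 of that of all miRNAs in each comparison after quantile normalization. For day 1 minus crypt, 1 of 72 members detected on either array was at least 2-fold higher and 1 at least 2-fold lower, against 5.32% and 6.20% of all miRNA probes. Their median log2 difference was -0.02, beside 0.04 over all miRNA probes. For day 5 minus crypt, 0 of 68 were at least 2-fold higher and 0 lower, against 4.37% and 5.12%, with a median of -0.03 beside 0.02. For villus minus crypt, 2 of 76 were higher and 1 lower, against 3.90% and 3.39%, with a median of 0.00 beside 0.01.

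The organoids were also set against the villus array, whose markers of other cell types are given above. For day 1 minus villus, 1 of 78 members was at least 2-fold higher and 1 lower, against 3.37% and 5.02% of all miRNA probes, with a median of 0.03 beside 0.04. For day 5 minus villus, 0 of 74 were higher and 2 lower, against 2.86% and 4.61%, with a median of 0.02 beside 0.02. Over culture, day 5 minus day 1, 0 of 70 members were higher and 0 lower, against 0.383% and 0.893%, with a median of 0.00 beside -0.01. Comparisons that share an array are not independent of each other. Scaling to the Spike Controls or to 8 epithelial miRNAs moved the members and all miRNAs together: the median for day 1 minus crypt was then 1.13 and 2.30, beside 1.41 and 2.57 over all miRNA probes. For villus minus crypt the members' median lay below that of all miRNAs by more under other scalings, at -0.40 relative to it with the Spike Controls, the epithelial miRNAs or the deposited values, and at -0.26 with scaling to the median or the 75th percentile. For day 1 minus crypt it was -0.26 relative to that of all miRNAs in the deposited values. For day 5 minus villus it was 0.19 relative to it with scaling to the median or the 75th percentile.

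**Figure D4:**
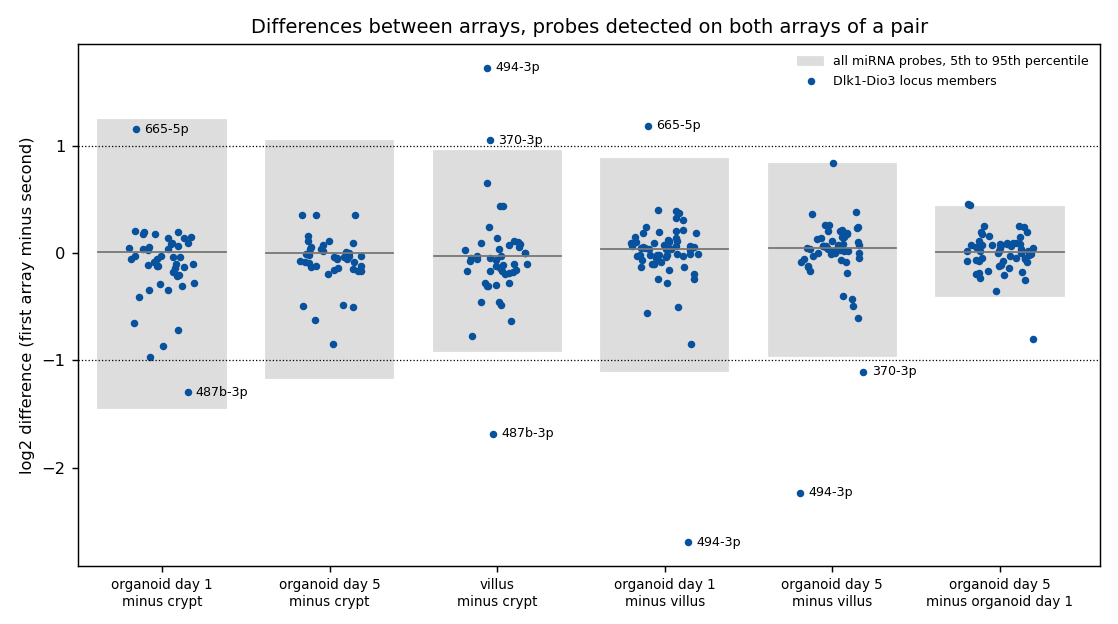
Log2 difference (first array minus second) of each member detected on both arrays of a pair (blue points), over the range from the 5th to the 95th percentile of all miRNA probes detected on both (grey box, with the median as a line). Dotted lines mark 2-fold; the 4 miRNAs beyond them are named, and for day 5 minus crypt and day 5 minus day 1 no member lies beyond them.

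The spread of the members was narrower than that of all miRNA probes. Over members detected on both arrays, the SD of the log2 differences was 0.37 for day 1 minus crypt (n = 47 members), 0.24 for day 5 minus crypt (n = 41) and 0.47 for villus minus crypt (n = 47), beside 0.76, 0.62 and 0.61 over all miRNA probes. With an offset of 16 the SD was 0.51, 0.33 and 0.61 over members and 0.91, 0.73 and 0.75 over all miRNA probes. The members also lay nearer to the detection limit than all miRNA probes, and the part of brightness in their spread was not tested.

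Of the 40 members detected on all 4 arrays, after quantile normalization 9 had both organoid levels above both tissue levels and 7 had both below, against 32.0% and 19.4% of the 1148 miRNA probes detected on all 4. The 9 were miR-134-5p, miR-154-5p, miR-299b-5p, miR-329-3p, miR-341-3p, miR-485-3p, miR-487b-5p, miR-665-3p and miR-665-5p. The 7 were miR-337-3p, miR-411-3p, miR-485-5p, miR-494-3p, miR-667-3p, miR-667-5p and miR-758-5p. Shares of 22.5% and 17.5% for the members were below or near those of all miRNA probes.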

How the data were processed

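Per the file headers, the authors' scanner tables give the median intensity of each spot at 635 nm on a linear scale, combined from 3 scan gains by straight-line fits. Per the labels' protocols, total RNA was labelled with Cy5. The sources used here do not name the image software. The deposited table of processed values also holds linear intensity: on each array it is the spot intensity less the blank level, times a constant that makes the median 25.0 (largest residual 0.0535).

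Of 1900 miRNA probes, 3 with a quality mark were left out. Spot intensities were used without the column named as background, which followed its own spot (correlations of 0.931 to 0.963). They were corrected by normexp (offset 50, limma 3.58.1, R 4.3.3) and quantile normalized as log2 of the corrected intensity. That script was tested on simulated data. Where 1 array of a pair did not detect a probe, the difference used for counts is a bound against the higher of its own level and the lowest detected level. The detection limit leaves out the highest and lowest 5% of 896 blank spots. Alternatives were other scalings, background steps, detection limits and the deposited values. The members and lists were chosen with earlier results of these data known. Members are named by distance above the limit (10), by the 4 largest differences each way per comparison, at 2-fold, and by detection on 1 array or none. Names given beyond that rule were chosen after their values were seen.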

Additional observations from a re-analysis of the deposited data

How the results depend on the processing

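No paired analysis was possible because each group has 1 array. Counts of members at least 2-fold different are given in the order day 1 minus crypt, day 5 minus crypt, villus minus crypt, day 1 minus villus, day 5 minus villus and day 5 minus day 1, where they were 2, 0, 3, 2, 2 and 0. Scaling to the Spike Controls gave 41, 22, 38, 16, 19 and 17. Scaling to the epithelial list gave 60, 48, 40, 50, 17 and 31. The counts were 26, 19, 21, 16, 17 and 13 in the deposited values, which have no offset. All miRNA probes moved too: their median for day 1 minus crypt was 0.04. It was 1.41 with the Spike Controls, 2.57 with the epithelial list and 0.38 in the deposited values. Shares of all miRNA probes at least 2-fold different are not given here for the alternatives. The counts of members under the alternatives alone therefore do not show whether the members differ from all miRNA probes. With scaling to the 75th percentile, day 1 minus crypt had 1 and villus minus crypt 16. With scaling to the median, day 5 minus day 1 had 1. With an offset of 16, day 1 minus crypt had 5, day 5 minus crypt 1, villus minus crypt 5 and day 5 minus day 1 1. With the background column subtracted, day 5 minus crypt had 2, day 5 minus villus 1 and day 5 minus day 1 1. Under the other alternatives these counts were within 1.5 times those above, but some turned in direction. For villus minus crypt, 2 members were higher and 1 lower, against 4 and 0 with scaling to the median and 0 and 2 with the background column subtracted. For day 1 minus crypt, 1 was higher and 1 lower, against 3 and 0 with scaling to the median and 0 and 2 with cyclic loess. The median for day 1 minus crypt was 1.13 with Spike Control and 2.30 with epithelial scaling, that for day 5 minus crypt 1.44 and that for day 1 minus villus 1.29 with epithelial scaling. Over all miRNA probes epithelial scaling put the median at 2.57, 1.63 and 1.32 in these 3 comparisons, and the members' median was -0.27, -0.19 and -0.04 relative to it. Above the highest Negative Control spot, a limit chosen after seeing the data, 22, 18, 39 and 26 members stood on the day 1, day 5, villus and crypt arrays. Of single miRNAs, miR-370-3p turned to -1.51 for villus minus crypt and to 0.38 for day 5 minus villus with the background column subtracted, and miR-487b-3p to 0.67 for day 1 minus crypt with epithelial scaling. The cause was not tested. Signal over background limits the rest: on the crypt array 86 of 101 members lay within 10% of the detection limit. No such count was made over all miRNA probes. Their median on that array was 1.04 times the limit, beside 1.00 for the members.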

Other observations

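Beyond the 101 members, 16 more probes have mature miRNAs that RefSeq places between miR-770 and miR-1247, the hairpin beside Dio3. They were chosen by position after values had been seen. Of these, 9 were detected on all 4 arrays, a share near the 60.5% of all miRNA probes. miR-1247-3p (chr12:110278058-110278078), from the hairpin farthest from Meg3, had an intensity of 1643 on day 1, 701 on day 5, 12160 on the villus array and 492 on the crypt array. Like miR-494-3p it was highest on the villus array, with a log2 difference of 1.73 for villus minus crypt, and of -2.17 on day 1 and -2.21 on day 5 against the villus. miR-1247-5p, its other arm, had 104 on day 1, 77.7 on day 5, 134.1 on the villus array and 69.5 on the crypt array, so its villus spot was near the limit of 107.9.

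miR-3072-5p (chr12:109747893-109747914), which lies past miR-410 within Mirg, was higher in organoids than in tissue after normalization. Its intensity was 2155 on day 1, 642 on day 5, 1274 on the villus array and 157 on the crypt array, and its differences from the crypt array were 2.004 on day 1 and 1.42 on day 5. miR-3072-3p, from the same hairpin, had 552 on day 1, 366 on day 5, 577 on the villus array and 328 on the crypt array, and differences from the crypt array of -1.11 on day 1, -0.77 on day 5 and -1.77 for the villus. After quantile normalization the arms of this hairpin thus differed from the crypt array in opposite directions in organoids. The spot of miR-3072-3p itself was not dimmer on day 5, at 366 against 328 on the crypt array. The Spike Controls of these arrays averaged 8578 and 8540 above the blank spots. The direction of miR-3072-3p under other scalings was not computed. Mature miR-3072-5p is 77.3% G and C and miR-3072-3p 63.6%. These values were computed with quantile normalization only.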
